A study of Mus musculus with 6 samples.

Results

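CC chemokines are small secreted proteins that draw leukocytes towards their source, and 10 of their genes are described here: Ccl2, Ccl3, Ccl4, Ccl5, Ccl6, Ccl7, Ccl9, Ccl17, Ccl22 and Ccl24. They were chosen by name, and not by their values, among the 31053 genes that all 6 count matrices hold. Each matrix is 1 droplet library of single cells, so each group has 1 library and no difference between groups has a replicate. A total of 3 libraries held bone marrow-derived dendritic cells (DCs) of wild-type C57BL/6J mice grown with GM-CSF, either untreated, stimulated with vitamin D3 (VD3, calcitriol) on day 7 of culture for a day, or Ndrg2-KO, with Cas9 and 3 guide RNAs against Ndrg2 brought in by nucleofection. The untreated DCs were not nucleofected, so that the effects of nucleofection and of the edit cannot be told apart. The other 3 libraries held cells of splinted skin wounds of wild-type C57BL/6J mice of both sexes, 6 weeks old at surgery. The wounds lay under pullulan-collagen hydrogels that carried control DCs, Ndrg2-KO DCs or no cells (blank hydrogels). Tissue was explanted on day 10 from 5 mice per group, and the study does not state how these mice were combined into 1 library. The labels call the control DCs of the wounds untreated, whereas the methods of the study describe non-targeting guide RNAs. Seeded and host cells of the wounds were not told apart here.

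The libraries kept 7257 to 8825 DCs and 1948 to 5681 wound cells, with 116461484 to 143627482 and 29675507 to 49240341 unique molecular identifiers (UMIs, 1 per captured RNA molecule). Levels are UMIs of a gene summed over cells, per 1000000 UMIs of the same cells (CPM). Since 3′ ends were counted, a UMI does not depend on gene length, and levels of different genes are given on the same scale. All intervals in parentheses are exact 95% intervals and cover counting error only. Ndrg2 itself stood at 4.62 CPM in untreated, 1.42 in VD3 stimulated and 0.884 in Ndrg2-KO DCs, and 3′ counts do not show whether a copy was edited. Any pair of libraries shared 1 to 19 cell barcodes, at most 0.264% of a library. Cells were grouped by clusters made without the Ccl genes, and a cluster was named X-like from marker genes of which no CC chemokine was one. The DC cultures held mature DC-like cells (36.4%, 37.6% and 25.0% of the untreated, VD3 stimulated and Ndrg2-KO libraries) beside cells with markers of other types, among them neutrophil-like cells, which were 12.8% of the untreated, 12.6% of the VD3 stimulated and 0.464% of the Ndrg2-KO library. Most other clusters of the cultures came nearly wholly from 1 library and may be that library rather than a type.

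The CC chemokines bear their name from a pair of neighbouring cysteines near the start of the secreted protein, and they act through G protein-coupled receptors on the cells they attract. Ccl2 and Ccl7 recruit monocytes through Ccr2. Ccl3, Ccl4 and Ccl5 are inflammatory ligands that attract monocytes and T cells, and Ccl3 and Ccl5 act through Ccr1. Ccl6 and Ccl9 are rodent ligands of Ccr1 made by myeloid cells. Ccl17 and Ccl22 attract Ccr4-bearing T cells and are typical products of DCs, and Ccl24 is an eotaxin that acts on eosinophils through Ccr3. By position in the mouse genome (GRCm38, GENCODE M21), Ccl2 (chr11:82035571-82037453), Ccl7 (chr11:82045712-82047525), Ccl5 (chr11:83525778-83530518), Ccl9 (chr11:83572919-83578636), Ccl6 (chr11:83587882-83593087), Ccl3 (chr11:83647844-83649355) and Ccl4 (chr11:83662584-83664683) share chromosome 11, Ccl22 (chr8:94745590-94751699) and Ccl17 (chr8:94810453-94812036) both lie on chromosome 8, with Cx3cl1 between them, and Ccl24 (chr5:135569937-135573049) is alone on chromosome 5. All 10 are protein-coding. Ccl6 and Ccl9 have 4 exons and the others have 3. An antisense gene overlaps Ccl2 (Gm17268) and Ccl6 (E230016K23Rik).

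The family feature is shown for 9 of the members by 30 bases of coding sequence, 5′ to 3′ on the strand of the gene, with the 2 cysteine codons in capitals. The stretch lies within exon 3 of Ccl6 and Ccl9 and within exon 2 of the others.
Ccl2: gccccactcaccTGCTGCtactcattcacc
Ccl7: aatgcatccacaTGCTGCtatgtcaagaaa
Ccl4: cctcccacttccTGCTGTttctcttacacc
Ccl5: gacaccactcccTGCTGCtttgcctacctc
Ccl6: acttcttcagacTGCTGCttctcttatgcc
Ccl9: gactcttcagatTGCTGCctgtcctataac
Ccl17: gtaggccgagagTGCTGCctggattacttc
Ccl22: gaagacagtatcTGCTGCcaggactacatc
Ccl24: atcccctcatctTGCTGCacgtcctttatt
Of these 9, Ccl4 alone had TGT as the second codon. The coding sequences were most alike for Ccl6 and Ccl9 at 70.6% identity, Ccl3 and Ccl4 at 69.96% and Ccl2 and Ccl7 at 68.4%. Not all genes near each other were alike in this way, with 61.5% for Ccl17 and Ccl22 and 59.3% for Ccl5 and Ccl9. The longest run that Ccl6 and Ccl9 shared was 25 bases, and how the counting treated reads within it is not known.

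Ccl17 and Ccl22, which both lie on chromosome 8 and both stood highest in untreated DCs among the cultures, differed in where they were found, and their promoters are printed for that reason. Promoters were taken from RefSeq (GRCm38.p6), whose table held 5 of the 10 members. On both strands, 4 motifs were searched in the 250 bases before the start: an NF-kB core (GGGA and CC with 4 bases between), a STAT motif with 3 bases between TTC and GAA (TTCNNNGAA), a STAT motif with 4 bases between them and a PU.1 motif (GAGGAAGT). Of all 32851 promoters of that length, 17.6%, 7.02%, 5.85% and 2.44% held them. The Ccl17 promoter (chr8:94810203-94810452, plus strand) held 1 match of each STAT motif, and the last 156 bases before Ccl22 (chr8:94745434-94745589, plus strand) held 1 match of the NF-kB core, read on the reverse strand. The matches are in capitals.
Ccl17: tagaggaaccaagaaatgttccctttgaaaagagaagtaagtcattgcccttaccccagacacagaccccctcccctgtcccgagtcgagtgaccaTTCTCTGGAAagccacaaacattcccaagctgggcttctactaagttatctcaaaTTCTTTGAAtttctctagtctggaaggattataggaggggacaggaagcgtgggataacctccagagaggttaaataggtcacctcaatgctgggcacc
Ccl22: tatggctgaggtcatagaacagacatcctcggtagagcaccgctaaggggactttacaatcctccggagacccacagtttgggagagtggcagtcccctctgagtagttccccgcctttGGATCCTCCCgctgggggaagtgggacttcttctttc
No match of the 4 motifs was found in the windows of Ccl3, Ccl6 and Ccl9. A match describes letters only.

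The 10 genes made up 1.11% of all UMIs in untreated, 0.764% in VD3 stimulated and 1.63% in Ndrg2-KO DCs, and 0.581% in control DC, 1.05% in Ndrg2-KO DC and 0.689% in blank hydrogel wounds. Which member led differed between the cultures and the wounds. Ccl5 held 28.4% and 35.4% of the family's UMIs in untreated and VD3 stimulated DCs, and Ccl6 50.2% in Ndrg2-KO DCs. In wounds, Ccl2 led with control DCs (35.6%), whereas Ccl4 led with Ndrg2-KO DCs (35.6%) and blank hydrogels (30.5%). Ccl5, Ccl17 and Ccl22 were higher in each culture than in any wound library, and Ccl2, Ccl7, Ccl3 and Ccl4 were higher in each wound library than in any culture.

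**Figure D1:**
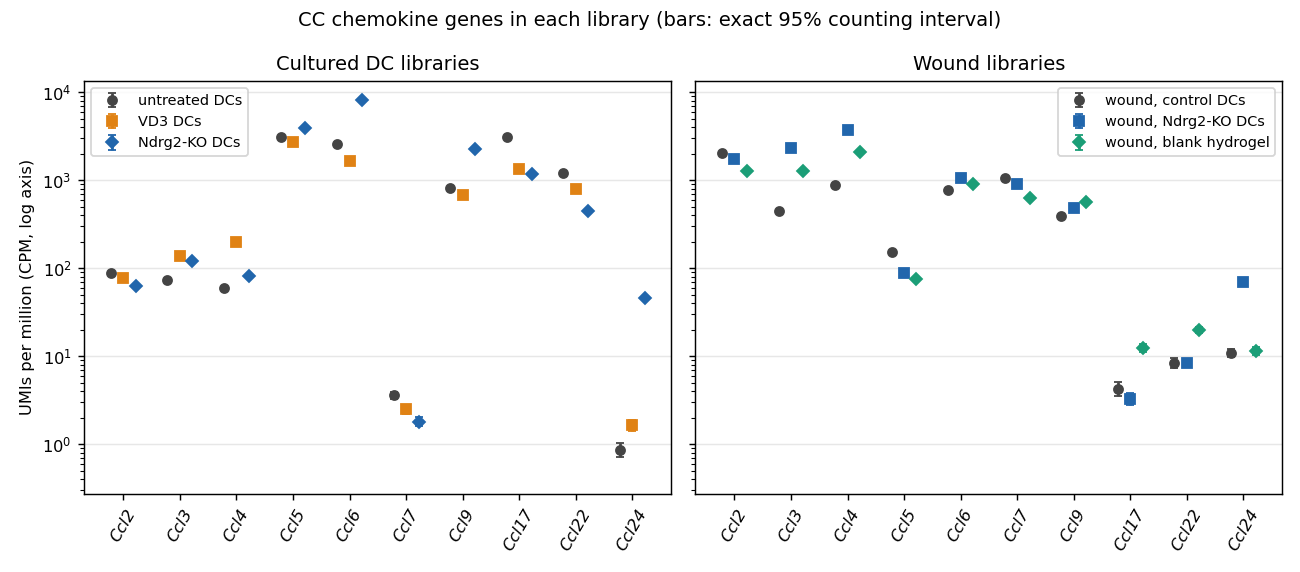
Level of each CC chemokine gene (horizontal axis) in CPM on a log axis, in the 3 DC libraries (left) and the 3 wound libraries (right), 1 point per library with its exact 95% counting interval. Ccl7 is under 4 CPM in all DC libraries and at 630.3 to 1067 CPM in the wounds, and Ccl17 is at 1166 to 3078 CPM in DCs and under 13 CPM in wounds.

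Ccl5, Ccl22 and Ccl17 are the ligands for which mature DCs are known. Ccl5, which attracts T cells and monocytes, stood at 3146 CPM (3137 to 3156) in untreated, 2705 CPM (2696 to 2715) in VD3 stimulated and 3919 CPM (3909 to 3930) in Ndrg2-KO DCs. Ccl22 was at 1225 CPM (1219 to 1231), 801 CPM (796 to 806) and 444 CPM (441 to 448) in the same order. The Ndrg2-KO library was thus the highest in Ccl5 and the lowest in Ccl22. Ccl17 was at 3078 CPM (3069 to 3088) in untreated DCs and lower in both others, at 1358 CPM (1351 to 1364) with VD3 and 1166 CPM (1161 to 1172) with Ndrg2-KO.

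The myeloid ligands of Ccr1 were highest in the Ndrg2-KO culture. Ccl6 stood at 2598 CPM (2590 to 2607) in untreated, 1677 CPM (1669 to 1684) in VD3 stimulated and 8204 CPM (8190 to 8219) in Ndrg2-KO DCs, where it ranked as the 10th most abundant gene of all. Ccl9 was at 815 CPM (810 to 820), 675 CPM (670 to 679) and 2283 CPM (2275 to 2291). Both were lowest with VD3. Ccl24 was close to absent in untreated and VD3 stimulated DCs, at 0.867 CPM (0.716 to 1.04) and 1.65 CPM (1.42 to 1.90), and reached 46.5 CPM (45.4 to 47.7) in Ndrg2-KO DCs.

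Ccl2, Ccl3, Ccl4 and Ccl7 were low in culture. Ccl2 was at 88.1 CPM in untreated, 76.9 in VD3 stimulated and 62.3 in Ndrg2-KO DCs. Ccl3 was at 74.1, 139 and 122 CPM and Ccl4 at 60.4, 201 and 82.2 CPM, each highest with VD3. Ccl7 stayed at 1.82 to 3.60 CPM, and a single Ndrg2-KO cell held 136 of the 261 Ccl7 UMIs of its library.

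Comparisons between the 3 cultures share libraries and are given side by side. Of the 10 members, Ccl4 was past 2-fold higher with VD3 than in untreated DCs (log2 ratio 1.73, 1.70 to 1.77), as were 4.18% of all genes with at least 50 UMIs, and Ccl17 was past 2-fold lower (-1.18, -1.19 to -1.17), as were 7.44%. Ccl3 (0.91) stayed just under 2-fold and Ccl22 was at -0.61. The median of the members was -0.24, beside -0.07 over all genes. With 1 of 10 members in each direction, these counts say little about the family as a whole.

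In Ndrg2-KO against untreated DCs, 3 members were past 2-fold higher (background 10.2%) and 2 lower (background 9.28%). The higher members were Ccl24 (log2 ratio 5.75, 5.48 to 6.02), Ccl6 (1.66, 1.65 to 1.66) and Ccl9 (1.49). The lower members were Ccl22 (-1.46, -1.48 to -1.45) and Ccl17 (-1.40, -1.41 to -1.39). Ccl5 (0.32), Ccl3 (0.72), Ccl4 (0.44) and Ccl2 (-0.50) lay between the higher myeloid ligands and the lower ligands of Ccr4. The median of the members was 0.38, and that of all genes -0.06.

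Against VD3 stimulated DCs, the same 3 members were past 2-fold higher in Ndrg2-KO DCs (background 13%, 1723 of 13235 genes), with log2 ratios of 4.82 for Ccl24, 2.29 for Ccl6 and 1.76 for Ccl9. Ccl4 was the 1 member past 2-fold lower (-1.29, background 9.21%), while Ccl17 (-0.22) was nearly level between both libraries. Without the top Ccl7 cell of each library, Ccl7 was past 2-fold lower in Ndrg2-KO DCs against untreated (-1.80) and VD3 stimulated DCs (-1.44), whereas among cells under 5% mitochondrial UMIs its ratios were 2.31 and 2.43, so that no direction is given for Ccl7 in culture.

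**Figure D2:**
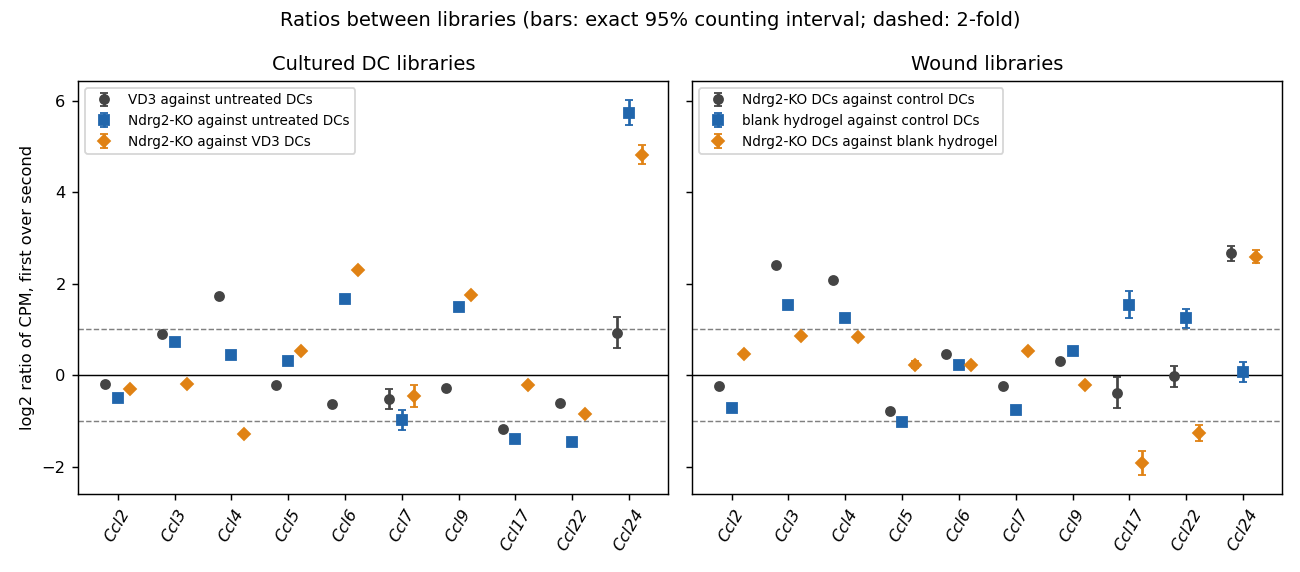
Log2 ratio of CPM between libraries (vertical axis, first named over second) for each gene (horizontal axis), DC libraries left and wound libraries right, with exact 95% counting intervals and dashed lines at 2-fold. Ccl24 lies at 5.75 and 4.82 for Ndrg2-KO DCs, and Ccl3 and Ccl4 lie at 2.40 and 2.08 for wounds with Ndrg2-KO against control DCs.

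The members split sharply by the state of the cultured cells. In all 3 DC libraries, Ccl5 and Ccl22 were past 2-fold higher in mature DC-like cells than in the other cells of the library (background 6.15% of genes), and Ccl2, Ccl3, Ccl4, Ccl6, Ccl7 and Ccl9 were past 2-fold lower (background 15.0%). Mature DC-like cells held 86.6%, 85.4% and 81.5% of the Ccl5 UMIs and 83.9%, 81.6% and 75.5% of the Ccl22 UMIs of the untreated, VD3 stimulated and Ndrg2-KO libraries. Mature DCs are the migrating, T cell-priming state of the cell and are known for both ligands. With cells drawn to 2000 UMIs each, 94.1% (93.1% to 94.95%), 82.9% (81.6% to 84.2%) and 96.9% (96.0% to 97.6%) of the mature DC-like cells had a Ccl5 UMI, before drawing 98.6%, 94.2% and 99.7%. Of VD3 macrophage-type-like cells drawn to the same depth, which are Ms4a7 and Gdf15 cells with little Ccl5 (104 CPM), 7.89% had one, undrawn 33.0%. The median depths were 11124 to 14526 UMIs in mature DC-like and 15149 UMIs in VD3 macrophage-type-like cells.

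Ccl17 did not follow Ccl22. It was lower in mature DC-like than in other cells of the untreated library (2199 against 3478 CPM, log2 ratio -0.66), level in the VD3 library (1351 against 1363 CPM) and higher in the Ndrg2-KO library (2084 against 972 CPM, log2 ratio 1.10). The highest Ccl17 of the cultures was in an untreated cluster led by Plet1, Cxcl3 and Clec4a3, at 6417 CPM (6386 to 6449), followed by cDC1-like cells at 4113 CPM (3993 to 4235) untreated and 3703 CPM (3619 to 3789) with VD3. Ccl22 in these cells was 78.6, 80.6 and 123 CPM. A Ccl17 UMI was found in 92.2% (83.8% to 97.1%) of 77 untreated cDC1-like cells and in 65.3% (62.4% to 68.1%) of the Plet1 cluster. Undrawn, these shares were 100% and 81.0%. The cluster with the higher level thus had the smaller share of cells with a UMI.

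**Figure D3:**
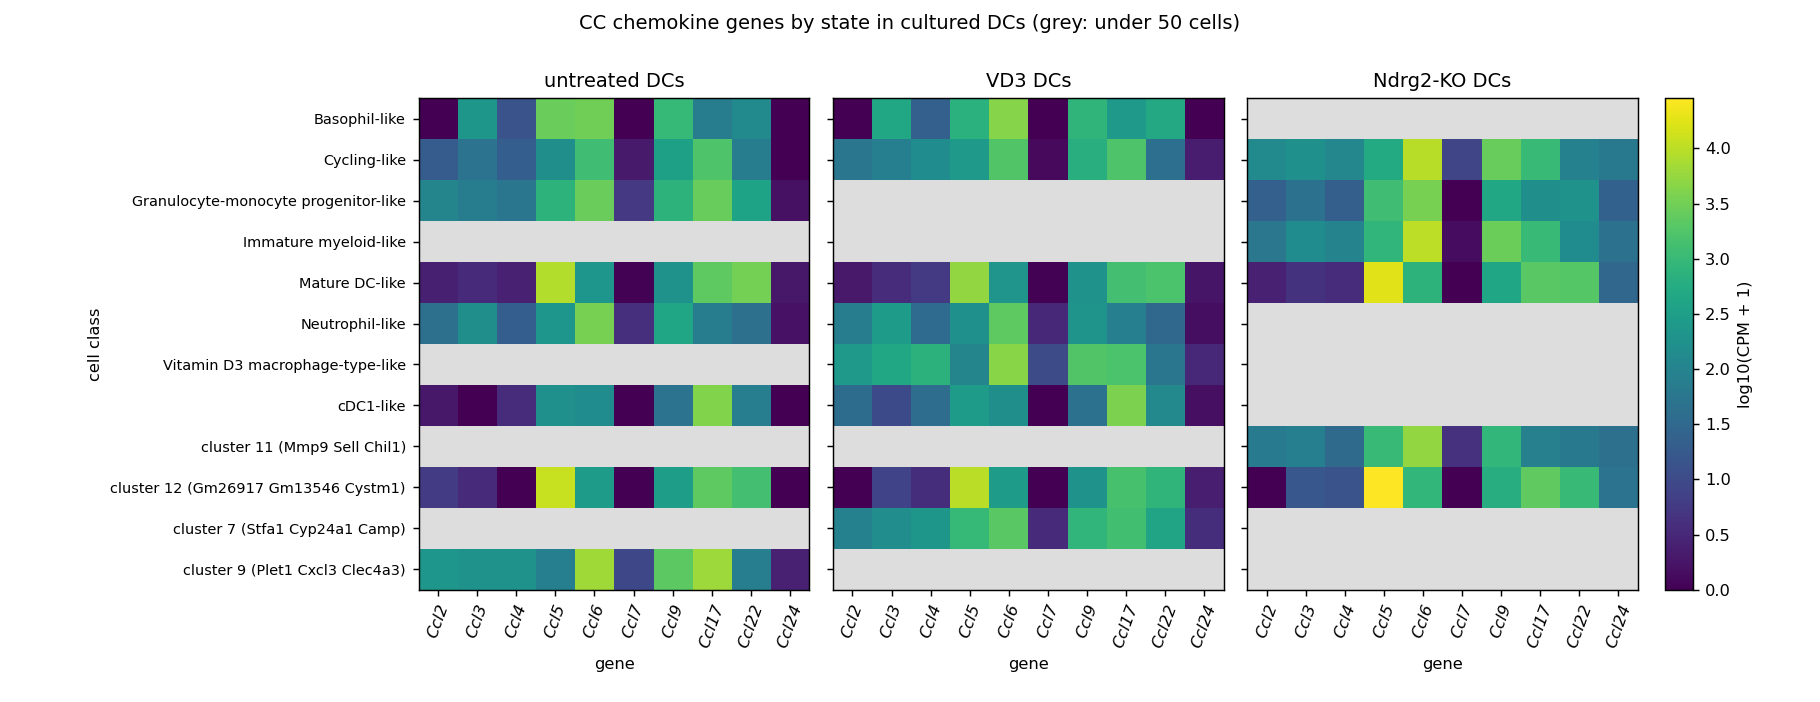
Level of each CC chemokine gene (columns) in each class of cultured cells (rows) as log10(CPM + 1), 1 panel per DC library, with classes under 50 cells in grey. Ccl5 and Ccl22 are bright in the mature DC-like row, and Ccl6 reaches 10335 CPM in Immature myeloid-like cells of the Ndrg2-KO library.

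Within mature DC-like cells, which different clusters supplied in each library (cluster 2 in untreated, 1 in VD3 stimulated and 6 in Ndrg2-KO), Ccl5 was at 8728 CPM (8699 to 8756), 5418 CPM (5398 to 5439) and 18270 CPM (18218 to 18323). Ccl22 was at 3293 CPM (3275 to 3310), 1534 CPM (1523 to 1545) and 1921 CPM (1904 to 1938). The Ndrg2-KO library had the fewest mature DC-like cells and the most Ccl5 in them, and Ccl17 stood at 2084 CPM in these cells and at 2199 CPM in untreated ones. With 9 members at 50 UMIs or more, Ccl5 (log2 ratio 1.07), Ccl6 (1.78), Ccl9 (1.12) and Ccl24 (4.94) were past 2-fold higher in Ndrg2-KO than in untreated mature DC-like cells (background 10.6%) and none was past 2-fold lower (background 3.79%). Within mature DC-like cells the ratio of Ccl17 was -0.08 and that of Ccl22 -0.78, beside -1.40 and -1.46 in whole libraries. The median over all genes was shifted in this comparison (0.21), below that of the members (0.79). Ccl24 reached the 50 UMIs through Ndrg2-KO cells. Mature DC-like cells held 33.9% of the 115 Ccl24 UMIs of the untreated library and 19.8% of 192 with VD3. In the untreated, VD3 stimulated and Ndrg2-KO libraries, Ccl6 was at 221, 207 and 759 CPM in mature DC-like cells. In their other cells it was at 3678, 2769 and 9781 CPM. Ccl9 was at 188, 197 and 409 CPM and at 1100, 1030 and 2679 CPM. Whether RNA released from other cells added to these levels was not tested.

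With VD3, Ccl22 was past 2-fold lower in mature DC-like cells (-1.10, background 4.38%) and Ccl4 past 2-fold higher (1.62, background 3.69%), the latter from 1.52 to 4.67 CPM. Against VD3, Ndrg2-KO mature DC-like cells were past 2-fold higher in Ccl5 (1.75), Ccl6 (1.88), Ccl9 (1.05) and Ccl24 (5.24), beside 10.5% of all genes and a median shift of 0.13, and in no member lower (background 4.05%).

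Mature DC-like cells with an Il12b UMI, the subunit of interleukin 12 and 23, differed from those without in Ccl5, Ccl17, Ccl6 and Ccl9. This split was chosen after the data were seen, on cells drawn to 2000 UMIs. Ccl5 was higher with Il12b in each library, at 17180 against 9271 CPM untreated, 11538 against 5661 CPM with VD3 and 34403 against 21205 CPM in Ndrg2-KO (log2 ratios 0.89, 1.03 and 0.70). Ccl17 was lower with Il12b in each, at 760 against 2047, 327 against 1210 and 463 against 1744 CPM (-1.43, -1.89 and -1.91). So were Ccl6 (-1.46, -1.59 and -1.29) and Ccl9 (-0.71, -1.45 and -1.61), on 21 to 58 UMIs in the cells with Il12b. For Ccl22 the differences were small in size and differed in sign (-0.35, -0.44 and 0.14, the last with an interval of -0.00 to 0.27). The cells with Il12b numbered 183, 185 and 108.

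**Figure D4:**
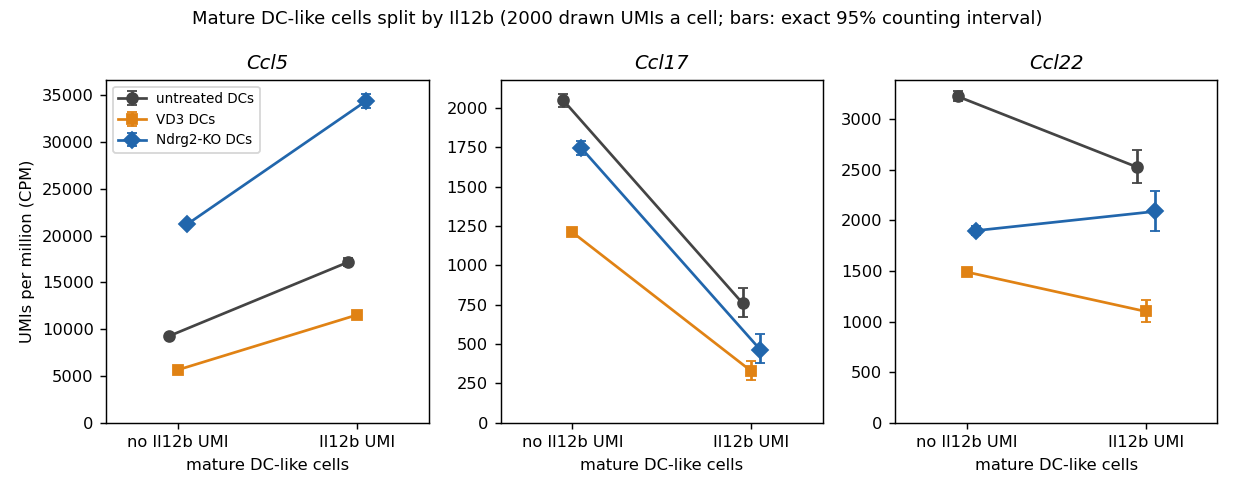
Level of Ccl5, Ccl17 and Ccl22 (vertical axes, CPM, from 0) in mature DC-like cells without and with an Il12b UMI, 1 line per DC library, with exact 95% counting intervals. Ccl5 is higher and Ccl17 lower with Il12b in each of the 3 libraries, and Ccl22 differs by at most 0.44 on the log2 scale.

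Per cell, a Ccl5 UMI was less frequent with a Ccl17 UMI than without, mainly in the VD3 library. Among VD3 stimulated mature DC-like cells drawn to 2000 UMIs, 74.0% (71.7% to 76.1%) of those with a Ccl17 UMI had a Ccl5 UMI, against 91.5% (90.1% to 92.8%) of those without. In untreated cells the shares were 92.5% (91.2% to 93.6%) and 98.9% (97.8% to 99.6%). In Ndrg2-KO cells they were 96.2% (95.1% to 97.2%) and 98.4% (97.0% to 99.2%), with overlapping intervals. These intervals count cells of 1 library and do not replace replicates.

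The macrophage-type ligands had other sources in each culture. In Ndrg2-KO DCs, 73.3% of Ccl6 and 73.0% of Ccl9 lay in Immature myeloid-like cells, a class with Csf1r and Ccr2 among its markers that made up 51.2% of that library and held 5 untreated and 1 VD3 stimulated cell. Ccl6 stood there at 10335 CPM (10314 to 10357) and Ccl9 at 2862 CPM (2851 to 2874). The highest untreated level was in the Plet1 cluster, at 6483 CPM (6451 to 6514) for Ccl6 and 2169 CPM (2151 to 2188) for Ccl9. In the VD3 library it was in VD3 macrophage-type-like cells, at 4672 CPM (4641 to 4702) and 1765 CPM (1746 to 1784).

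Ccl24 was found in each class of the Ndrg2-KO library that held at least 50 cells. These 6 classes stood between 22.8 CPM (granulocyte-monocyte progenitor-like) and 63.5 CPM (cycling cells), with 47.0 CPM in Immature myeloid-like and 28.9 CPM in mature DC-like cells. No class of the other 2 cultures was above 2.88 CPM. Most cycling cells of the Ndrg2-KO library lay in a cluster that also passed 5 of 8 Immature myeloid markers. At 2000 drawn UMIs, 6.54% (5.80% to 7.35%) of Immature myeloid-like cells and 3.32% (2.58% to 4.21%) of mature DC-like cells had a Ccl24 UMI, undrawn 26.3% and 10.8%, beside 0.0759% (undrawn 0.909%) of untreated mature DC-like cells. Median depths were 19003 UMIs in Immature myeloid-like cells and 11124 and 14526 UMIs in Ndrg2-KO and untreated mature DC-like cells. The 5% of Ndrg2-KO cells with the most Ccl24 held 68.1% of it. For the other members this share ran from 20.8% (Ccl6) to 100% (Ccl7), with 88.3% for Ccl2 and 79.3% for Ccl4. At a finer clustering resolution, a cluster of 419 Ndrg2-KO cells led by Vcan and Ccl24 stood at 68.3 CPM (63.1 to 73.8) and held 9.40%. Whether RNA released from other cells added to the low classes was not tested.

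Ccl2 and Ccl4 were highest in the VD3 culture's macrophage-type-like cells, at 260 CPM (253 to 268) and 739 CPM (727 to 751). Ccl3 was at 448 CPM (439 to 458) in them and at 470 CPM (421 to 522) in 77 basophil-like cells of that culture, level within counting error. The macrophage-type-like cells held 56.0% of the library's Ccl2 and 60.9% of its Ccl4. In untreated DCs the Plet1 cluster led in Ccl2 (222 CPM) and Ccl4 (188 CPM). In the Ndrg2-KO library cycling cells, whose main cluster passed Immature myeloid markers too, led with 136 CPM Ccl2, 175 CPM Ccl3 and 115 CPM Ccl4. Immature myeloid-like cells held the most UMIs of each (53.4%, 68.5% and 70.1%). Among mature DC-like cells all 3 ligands stayed under 5 CPM in every culture. The 5% of untreated cells with the most held 79.6%, 73.6% and 94.3% of Ccl2, Ccl3 and Ccl4, and those with VD3 81.2%, 60.3% and 78.1%.

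In wounds, the inflammatory ligands Ccl3 and Ccl4 differed past 2-fold between control DCs and each of the other libraries. Ccl3 stood at 446 CPM (439 to 454) with control DCs, 2354 CPM (2341 to 2368) with Ndrg2-KO DCs and 1292 CPM (1280 to 1304) with blank hydrogels. Ccl4 was at 880 CPM (870 to 891), 3729 CPM (3712 to 3746) and 2100 CPM (2085 to 2115). Both were lowest with control DCs and highest with Ndrg2-KO DCs. Ccl2 had another order, highest with control DCs and lowest with blank hydrogels, at 2068, 1750 and 1266 CPM, as had Ccl7 at 1067, 912 and 630.3 CPM.

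Against wounds with control DCs, those with Ndrg2-KO DCs were past 2-fold higher in Ccl24 (log2 ratio 2.67, 2.50 to 2.83), Ccl3 (2.40, 2.37 to 2.43) and Ccl4 (2.08, 2.06 to 2.10), 3 of 10 members beside 4.39% of all genes, and in no member lower (background 6.22%). The median of all genes was shifted by -0.15 and that of the members was 0.14. Blank hydrogels were past 2-fold higher than control DCs in Ccl3 (1.53), Ccl4 (1.25), Ccl17 (1.54) and Ccl22 (1.24), beside 3.71% of all genes, and lower in Ccl5 (-1.02, background 3.89%). Against blank hydrogels, Ndrg2-KO DCs were past 2-fold higher in Ccl24 (2.59, background 1.75%) and lower in Ccl17 (-1.91) and Ccl22 (-1.26, background 2.01%), with a median of all genes of -0.10 and of the members of 0.35. These 3 comparisons share libraries too.

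Several of these calls rested on few cells. In the control DC wounds, 1 dendritic cell-like cell held 1694 of 4573 Ccl5 UMIs, and without the top cell of each library the ratio of blank hydrogels to control DCs was -0.46, no longer past 2-fold. In the blank hydrogel wounds, 1 Arg1 macrophage-like cell held 234 of 433 Ccl17 UMIs, and without the top cells the Ccl17 ratio to control DCs was 1.21 and that of Ndrg2-KO DCs to blank hydrogels -1.28. As the mean over cells, in which each cell weighs the same, the ratios of blank hydrogels to control DCs were 0.09 for Ccl17, 0.27 for Ccl22 and 0.66 for Ccl4, none past 2-fold, and 1.08 for Ccl3.

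Neutrophil-like cells were the main source of Ccl3 and Ccl4, and their share of the kept cells was 23.7% with control DCs, 51.0% with Ndrg2-KO DCs and 45.9% with blank hydrogels. They held 62.9%, 74.5% and 82.6% of Ccl3 and 79.3%, 80.0% and 87.1% of Ccl4. Within them, Ccl3 was at 5082 CPM (4973 to 5192), 8831 CPM (8773 to 8890) and 6310 CPM (6246 to 6375), and Ccl4 at 12636 CPM (12464 to 12809), 15018 CPM (14941 to 15095) and 10818 CPM (10734 to 10902). The log2 ratio of Ndrg2-KO to control DCs was therefore 0.80 for Ccl3 and 0.25 for Ccl4 within neutrophil-like cells, beside 2.40 and 2.08 in whole libraries.

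The neutrophil-like cells formed 2 clusters. In the cluster led by Il23a and Il1a, Ccl3 was at 11190, 13229 and 10999 CPM with control DCs, with Ndrg2-KO DCs and under blank hydrogels, and in the cluster led by Cxcr2 at 3469, 5139 and 4646 CPM. The former made up 17.8%, 37.6% and 20.2% of the neutrophil-like cells. At 1000 drawn UMIs, 65.5% (60.9% to 69.9%), 79.9% (78.4% to 81.4%) and 74.3% (72.0% to 76.5%) of neutrophil-like cells had a Ccl3 UMI (undrawn 77.2%, 87.8% and 85.8%), against 0.414%, 4.80% and 2.05% of fibroblast-like cells, with median depths of 2928 to 3359 and 27095 to 30340 UMIs. A Ccl3 UMI was more frequent in neutrophil-like cells with a Ccl4 UMI than in those without, with 76.0% against 35.6%, 86.1% against 58.9% and 81.0% against 54.4%.

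Without the neutrophil-like cells, a sum chosen after the data were seen, the log2 ratios of Ndrg2-KO to control DCs were 2.09 for Ccl3 and 2.27 for Ccl4, still past 2-fold. Those of blank hydrogels to control DCs were 0.63 and 0.76, no longer past 2-fold, and those of Ndrg2-KO DCs to blank hydrogels were 1.46 and 1.51. In Arg1 macrophage-like cells Ccl4 was at 77.7 CPM (66.7 to 89.9) with control DCs, 2023 CPM (1992 to 2055) with Ndrg2-KO DCs and 181 CPM (169 to 193) with blank hydrogels, and Ccl3 at 227, 2010 and 356 CPM. Resident macrophage-like cells went the other way, with Ccl4 at 1017, 726 and 743 CPM and Ccl3 at 949, 590 and 735 CPM.

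S100a9, a gene that neutrophils make in abundance, also differed between the libraries in these classes. It stood in Arg1 macrophage-like cells at 46.2, 2218 and 638 CPM and in fibroblast-like cells at 25.3, 301 and 232 CPM, in the same library order. In fibroblast-like cells Ccl4 was at 5.34, 150 and 59.9 CPM. In resident macrophage-like cells S100a9 was at 196, 714 and 127 CPM. Ccl4 per S100a9 UMI was 0.173, 0.247 and 0.183 in neutrophil-like cells, 1.68, 0.912 and 0.284 in Arg1 macrophage-like cells and 5.19, 1.02 and 5.83 in resident macrophage-like cells. The part of neutrophil RNA in the levels of the other classes was not tested.

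**Figure D5:**
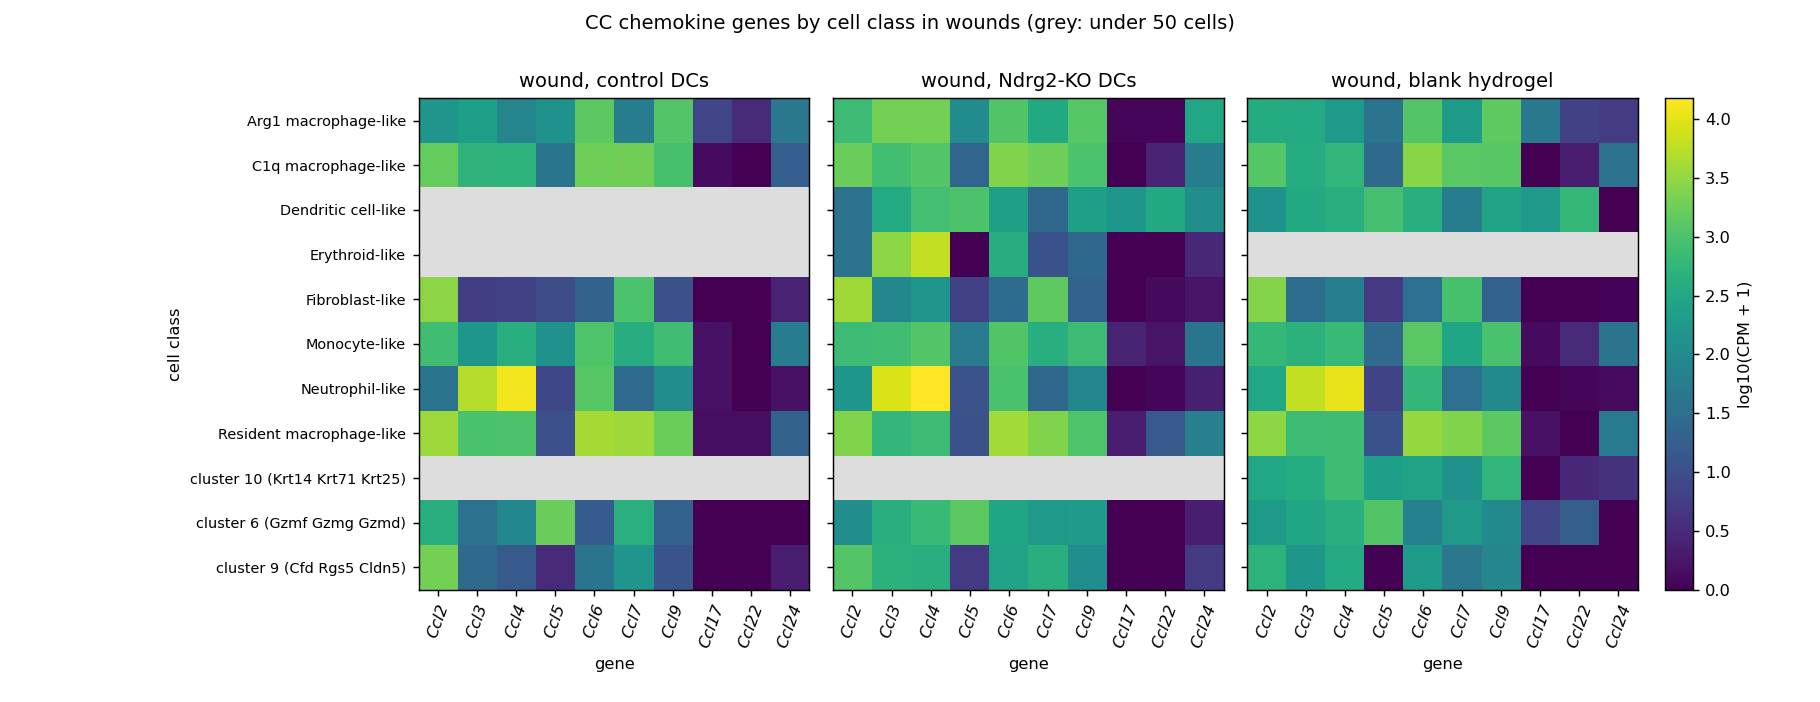
Level of each CC chemokine gene (columns) in each class of wound cells (rows) as log10(CPM + 1), 1 panel per wound library, with classes under 50 cells in grey. Ccl3 and Ccl4 are highest in neutrophil-like cells in each library, Ccl6 in resident macrophage-like cells, and Ccl24 reaches 324 CPM in Arg1 macrophage-like cells with Ndrg2-KO DCs.

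Ccl2 and Ccl7, the ligands that bring in monocytes, had their highest levels in resident macrophage-like cells, except Ccl2 with Ndrg2-KO DCs, which was highest in fibroblast-like cells. Ccl2 was at 2780 CPM (2754 to 2806) in fibroblast-like cells with control DCs, 3871 CPM (3839 to 3904) with Ndrg2-KO DCs and 2521 CPM (2491 to 2551) with blank hydrogels. In resident macrophage-like cells, which carry Lyve1 and Cd209f, it was at 3684 CPM (3608 to 3762), 2422 CPM (2375 to 2469) and 2908 CPM (2827 to 2991). The class with the highest Ccl2 thus differed between libraries. The unnamed cluster led by Cfd, Rgs5 and Cldn5, which carried endothelial, mural and mast cell markers, followed with control DCs at 2039 CPM, and stood at 1126 and 499 CPM in the other wounds. Fibroblast-like cells held 70.3%, 65.0% and 61.7% of Ccl2 while making up 24.8%, 8.80% and 10.0% of the cells, which were the deep ones noted above.

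Ccl7 was highest in resident macrophage-like cells in each library, at 3671 CPM (3594 to 3748), 2390 CPM (2343 to 2437) and 2407 CPM (2334 to 2483), with 1849, 1776 and 1303 CPM in C1q macrophage-like and 1002, 1372 and 906 CPM in fibroblast-like cells. In Arg1 macrophage-like cells Ccl2 stood at 149, 734 and 373 CPM and Ccl7 at 55.8, 338 and 186 CPM, both lowest with control DCs. Ccl2 and Ccl7 were often in the same fibroblast-like cells. At 1000 drawn UMIs, 82.2%, 87.7% and 71.9% of those with a Ccl7 UMI had a Ccl2 UMI, against 35.9%, 55.3% and 39.6% of those without. In neutrophil-like cells Ccl2 was at 39.0, 156 and 324 CPM.

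Ccl6 and Ccl9 were ligands of the macrophage-like classes. Ccl6 stood at 783 CPM with control DCs, 1076 CPM with Ndrg2-KO DCs and 917 CPM with blank hydrogels in whole libraries, and Ccl9 at 392, 486 and 563 CPM, all within 2-fold. Resident macrophage-like cells had the most Ccl6 in each library, at 4162, 3892 and 3335 CPM, followed by C1q macrophage-like cells at 1809, 2401 and 2705 CPM. For Ccl9 the highest class differed, with 1729 CPM in resident macrophage-like cells with control DCs and 1244 and 1403 CPM in Arg1 macrophage-like cells in the other wounds.

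Ccl24 stood at 10.9 CPM (9.73 to 12.1) with control DCs, 69.0 CPM (66.7 to 71.4) with Ndrg2-KO DCs and 11.4 CPM (10.3 to 12.6) with blank hydrogels. Arg1 macrophage-like cells held 74.3% of it with Ndrg2-KO DCs, at 324 CPM (311 to 337), whereas with control DCs they were at 46.7 CPM (38.3 to 56.4), beside 54.7 CPM (44.0 to 67.3) in monocyte-like cells. In the blank hydrogel wounds Ccl24 was at 35.9 CPM in C1q, 39.9 CPM in monocyte-like and 50.6 CPM in resident macrophage-like cells. At 1000 drawn UMIs, 6.89% (5.07% to 9.11%) of Arg1 macrophage-like cells with Ndrg2-KO DCs had a Ccl24 UMI (undrawn 17.2%), against 1.30% with control DCs and 0.299% with blank hydrogels, and against 0.245% of neutrophil-like cells with Ndrg2-KO DCs. Of the 10 members, Ccl24 had the highest ratio in both comparisons of Ndrg2-KO DCs in culture and in both of their wounds. Against control DC wounds this depended on the setting. Over the alternatives the ratio there ran from 1.71 to 3.16 for Ccl24 and from 1.76 to 2.54 for Ccl3. The cultures and wounds are separate libraries, and whether seeded cells carried the wound Ccl24 was not tested.

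Ccl5, Ccl17 and Ccl22 were low in wounds. Ccl5 was at 154, 89.2 and 75.9 CPM with control DCs, with Ndrg2-KO DCs and under blank hydrogels. Its highest class with at least 50 cells was the cluster led by the granzymes Gzmf, Gzmg and Gzmd, which carried T cell, NK and mast cell markers and was left unnamed, at 1665 CPM (1587 to 1745), 1326 CPM (1270 to 1384) and 1083 CPM (1017 to 1152). Dendritic cell-like cells were at 1018 CPM (955 to 1083) with Ndrg2-KO DCs and 881 CPM (825 to 940) with blank hydrogels, and with control DCs there were 39 of them, under the minimum of 50 cells. At a finer clustering resolution, T cell-like cells stood at 798, 798 and 422 CPM.

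Ccl17 and Ccl22 were at 3.29 to 12.4 and 8.33 to 20.0 CPM in whole wounds. Dendritic cell-like cells held 81.5% and 91.3% of Ccl22 with Ndrg2-KO DCs and blank hydrogels, at 345 CPM (309 to 384) and 604 CPM (558 to 653), and Ccl17 was at 156 CPM (132 to 183) and 179 CPM (155 to 207) in the same cells. These levels lay below those of Ccl22 in any cultured mature DC-like class. Drawn to 1000 UMIs, 16.9% (9.54% to 26.7%) and 19.7% (11.5% to 30.5%) of dendritic cell-like cells had a Ccl22 UMI, undrawn 27.7% and 42.9%, and 0 of 2860 and 0 of 1532 neutrophil-like cells did (undrawn 0.0690% and 0.0641%), for which the exact intervals reach up to 0.129% and 0.240%. Median depths were 10686 and 12536 UMIs in dendritic cell-like and 2928 and 3359 UMIs in neutrophil-like cells.

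Of 11 other CC ligands, 1 reached 10 CPM in a culture (Ccl25, 11.2, 14.3 and 7.90 CPM) and 3 in a wound library. Ccl8, a close relative of Ccl2, was at 1766, 2112 and 1205 CPM in wounds with control DCs, with Ndrg2-KO DCs and under blank hydrogels and reached 14012, 18373 and 10846 CPM in resident macrophage-like cells, above each of the 10 members in those cells. Ccl11, an eotaxin like Ccl24, was at 124, 70.8 and 110 CPM, and Ccl12 at 50.6, 64.3 and 57.6 CPM. No other CC ligand of the list reached 10 CPM in any library.

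Of 14 CC receptors, 5 reached 10 CPM in a culture and 6 in a wound library. Ccr2, the receptor of Ccl2 and Ccl7, was at 318 CPM without treatment, 548 CPM after Ndrg2-KO and 0.687 CPM with VD3. Ccr1 stood at 143 CPM untreated, 80.7 CPM with VD3 and 232 CPM in Ndrg2-KO DCs. Ccr7, which guides mature DCs and binds none of these ligands, was at 424, 713 and 211 CPM. In wounds, Ccr1 was at 172, 414 and 326 CPM and the atypical receptor Ccrl2 at 72.1, 330 and 236 CPM, and both were highest in neutrophil-like cells (Ccr1 1375, 1228 and 1121 CPM, Ccrl2 671, 1205 and 1060 CPM).

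The genes most like each member were sought over 22 sums of cells per class and library in the cultures and 28 in the wounds, by Pearson's r of log2(CPM + 1). These sums share libraries and depth, and r is a description. In the cultures Ccl5 was closest to Ramp3 (0.957) and Sept4 (0.950), and Ccl22 to Gm16685 (0.959) and Tmem123 (0.958), the latter a marker used for naming mature DCs. Ccl6 was closest to Ctsd (0.952) and Hacd4 (0.943), Ccl3 to Hacd4 (0.922) among others, Ccl2 to Cmklr1 (0.926) and Cd300ld (0.914), and Ccl24 to Gm10076 (0.926) and Sdc1 (0.890). The closest genes were Zadh2 (0.9002) and Ercc6 (0.898) for Ccl4, Stk39 (0.889) and Wtip (0.869) for Ccl17, and Vat1 (0.877) and Tollip (0.852) for Ccl9.

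In the wounds the inflammasome sensor Nlrp3 (0.934) and the cytokine Tnf (0.927) were closest to Ccl3, and Slfn4 (0.916) and Hcar2 (0.907) to Ccl4. The macrophage genes Cd68 (0.965), Lyz2 (0.960) and Csf1r (0.956) were among those closest to Ccl6 and Ccl9, with Gm21188 (0.965) the second of Ccl6. Ccl5 was closest to Ap1s3 (0.932) and Itgb7 (0.912), Ccl2 to Rnase4 (0.905) and Armcx3 (0.8997), Ccl7 to Ccnh (0.879) and Maf (0.879), Ccl22 to Tm4sf5 (0.909) and Bcl2l14 (0.887), Ccl17 to Tm4sf5 (0.853) and Cd70 (0.835), and Ccl24 to St6galnac4 (0.842) and Ms4a8a (0.832). Among the members themselves, r in the wounds was highest for these pairs, with 0.962 for Ccl3 and Ccl4, 0.895 for Ccl17 and Ccl22, 0.875 for Ccl2 and Ccl7 and 0.875 for Ccl6 and Ccl9. In the cultures r was above 0.85 for Ccl3 and Ccl6 (0.893), Ccl6 and Ccl9 (0.878) and Ccl5 and Ccl22 (0.867).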

How the data were processed

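Suspended cells of the 3 DC cultures and cells of digested wounds were sequenced as 1 droplet library per group (10x, 3′ chemistry). The authors deposited UMI counts per gene and cell barcode, not normalized, for barcodes called as cells, made with Cell Ranger (3.1.0 in the headers of the DC files, 6.0.0 in those of the wound files). The labels name genome mm9 and Seurat 3.1.1, the methods of the study mm10. Of the 31053 genes, 31011 were found in GENCODE M21 (GRCm38), from which positions were taken.

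Barcodes were kept if they had 300 genes or more, fewer than 100000 UMIs and less than 10% of UMIs from mitochondrial genes. UMIs were summed per library or class and scaled to CPM, with exact 95% Poisson, binomial (Clopper-Pearson) and conditional binomial intervals for levels, shares and ratios. With 1 library per group, no test was made. Members with at least 50 UMIs in both sums together were counted past 2-fold. Shares were taken after drawing cells to 2000 UMIs (DCs) or 1000 UMIs (wounds), which left out 134 to 1149 and 25 to 95 cells per library. Clusters were made with Seurat 5.3.0 in R 4.3.3 (2000 variable genes without the Ccl genes and Ndrg2, 15 components, 15 neighbours, Louvain resolution 0.5), and named from at least 3 listed markers at 50 CPM and 2-fold over the other cells. Shallow clusters without such a marker among their 10 leading genes stayed unnamed. Class values are given for at least 50 cells. Doublets were scored with Scrublet (scanpy 1.11.5) and kept. Its own threshold marked at most 0.873% of cells, and the 6% with the highest score were left out in an alternative. Python 3.11.15, NumPy 2.4.6 and SciPy 1.17.1 were used, and scripts were tested on simulated data. All members were named, with other CC ligands and CC receptors at 10 CPM or more in a library and the 2 closest genes of each member at 50 CPM or more in a class. Members, marker lists and alternatives were chosen with earlier results of these data known. Genome alignment was not repeated, protein sequences were not used here, and a few items that these rules would name are not reported here.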

Additional observations from a re-analysis of the deposited data

Results flagged for a closer look

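In 3 cases a member differed past 2-fold in opposite directions between classes of the same pair of DC libraries. This held for 1 of 8 members beside 0.214% of all genes with VD3 against untreated DCs, and for 2 of 8 beside 2.62% with Ndrg2-KO against untreated DCs, among genes with at least 200 UMIs in 2 classes or more. The differences between the classes were not tested. Ccl22 with VD3 was lower in mature DC-like cells (log2 ratio -1.10) and higher in basophil-like cells (1.86), from 133 CPM in 59 untreated to 485 CPM in 77 VD3 stimulated cells. Ccl2 in Ndrg2-KO against untreated DCs was higher in cycling cells (2.86, from 18.7 to 136 CPM) and lower in granulocyte-monocyte progenitor-like cells (-2.22, from 104 to 22.3 CPM). Ccl4 in the same comparison was at 2.50 in cycling cells (from 20.3 to 115 CPM) and at -1.37 in granulocyte-monocyte progenitor-like cells (from 55.3 to 21.4 CPM). The cycling cells of the 2 libraries came mostly from different clusters, with median depths of 2826 UMIs untreated and 24263 UMIs in Ndrg2-KO. The untreated cluster passed 4 of 6 cycling markers, and the Ndrg2-KO cluster 6 of 6 with 5 of 8 Immature myeloid markers. The granulocyte-monocyte progenitor-like cluster also passed 6 of 6 cycling markers, so that these names overlap. The Ndrg2-KO library had 129 of its cells. The part of these values in the differences was not tested.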

How the results depend on the processing

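With 1 library per group there was no test to repeat and no replicate to leave out. No paired analysis was possible because each group has 1 library and no result comes from a test. Over all counts and alternatives, 30 recomputed counts moved by over 1.5 times and 127 did not, while 227 recomputed ratios of single genes lay outside the 95% counting interval of the main ratio and 193 within it, and no called ratio changed sign. The cause of a move was not tested where none is given. At 1.5-fold, VD3 against untreated DCs gave 3 members higher (9.72% of all genes) and 3 lower (16.0%), with 1 and 1 at 2-fold. Ndrg2-KO against VD3 DCs gave 2 lower (17.8%, 1 at 2-fold). Wounds with Ndrg2-KO against control DCs gave 1 lower (17.3%, 0 at 2-fold). Blank hydrogels against control DCs gave 3 lower (12.7%, 1 at 2-fold), and Ndrg2-KO DCs against blank hydrogels 3 higher (4.59%, 1 at 2-fold). At 4-fold the counts fell to 0 and 0 for VD3 against untreated, 1 higher and 0 lower for Ndrg2-KO against untreated, 0 lower for Ndrg2-KO against VD3, 0 and 0 for blank hydrogels against control DCs and 0 lower for Ndrg2-KO DCs against blank hydrogels. Of all genes, 4.59% to 21.7% passed 1.5-fold and 0.434% to 5.65% passed 4-fold in a direction of a comparison, and 1.55% to 18.1% passed 2-fold over the settings below, for which the top cell was left out of the members alone. Without mitochondrial and ribosomal protein genes, 3 members were higher with VD3 (Ccl3 and Ccl24 beside Ccl4) and 2 lower in Ndrg2-KO against VD3, as under 5% mitochondrial UMIs (2). As the mean over cells, 2 were lower with VD3 (6.88% of all genes) and 1 lower with Ndrg2-KO against control DCs (18.1%). With blank hydrogels against control DCs, 1 was higher (2.05%) and 2 were lower (12.6%). With at least 300 UMIs or median-ratio scaling, 0 were lower with blank hydrogels (Ccl5 at -0.99 in both). The next 2 alternatives were chosen after the data were seen. Leaving out neutrophil-like cells gave 2 higher (2.71%) and 0 lower (2.52%) for blank hydrogels against control DCs. It gave 3 higher (2.14%) for Ndrg2-KO DCs against blank hydrogels. Leaving out the top cell gave 2 higher with VD3, 2 lower in Ndrg2-KO against VD3 and 0 lower with blank hydrogels. Ccl5 and Ccl22 were the members higher in mature DC-like cells under all 6 alternatives. Among classes of at least 50 cells, the highest wound class was the same in all 3 libraries for 5 members, and for 8 with 30 components. The share over all genes was not counted, so these counts are not set against a background. Ccl5 was among the 5 only with the minimum of 50 cells. The 39 dendritic cell-like cells with control DCs were higher in it than the cluster led by granzymes.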

Other observations

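The 63 erythroid-like cells of wounds with Ndrg2-KO DCs stood at 2951 CPM Ccl3 and 6313 CPM Ccl4, with S100a9 at 23594 CPM, against 60806 CPM in neutrophil-like cells of the same library. The part of neutrophil RNA in these values was not tested. Ccl22 in resident macrophage-like cells with Ndrg2-KO DCs was at 13.7 CPM, with 56 of these UMIs in 1 cell.

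In the DC cultures, cluster 12, led by Gm26917, Gm13546 and Cystm1 and left unnamed because it was shallow (median 2696 to 5169 UMIs) with no mature DC marker among its 10 leading genes, although it passed 3 of 9 such markers, had the highest Ccl5 of each library, at 11807 CPM (11472 to 12151) untreated, 9705 CPM (9478 to 9936) with VD3 and 28465 CPM (27939 to 28998) in Ndrg2-KO. The neutrophil-like cells of the cultures differed from those of the wounds in Ccl4, with 20.8 and 35.4 CPM in untreated and VD3 stimulated cultures against 10818 to 15018 CPM in wounds, while Ccl6 was higher in the cultures, at 3420 and 2269 CPM against 580 to 1256 CPM. Cultures and wounds were processed with different versions of Cell Ranger, and the part of this in the difference was not tested.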
